A study of Homo sapiens with 6 samples.

Results

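The 36 genes described here encode aminoacyl-tRNA synthetases, and they were measured in K562, a human cell line from chronic myelogenous leukemia, with and without knockdown of HNRNPU. A locus of the deposited table was taken as a member when its gene names held a listed synthetase, and all 36 listed names were found, at 36 of 62828 loci, of which 4 also carry the names of other genes. Names ending in 2 mark the 16 mitochondrial enzymes, and the other 20 are cytosolic. The knockdown cells received siRNA against HNRNPU at 300 nM and the control cells received control oligos. From each condition whole-cell, nuclear and cytosolic RNA was taken, which gives 6 groups of 1 library: knockdown whole-cell, control whole-cell, knockdown nuclear, control nuclear, knockdown cytosolic and control cytosolic. All cells were of the same line, and no label says if 1 culture or several supplied the 3 RNA preparations. No group has a replicate library, so every difference below describes these libraries, no test of condition was run, and levels in bulk RNA cannot tell fewer expressing cells from less RNA per cell.

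Aminoacyl-tRNA synthetases join each amino acid to its tRNAs, the step at which the genetic code is read into chemistry. Human cells run this step in the cytosol and again inside mitochondria, where a separate set of nuclear-encoded enzymes charges the mitochondrial tRNAs for translation of respiratory chain subunits. Several cytosolic synthetases sit in a large multi-synthetase complex held together by the AIMP scaffold proteins, and GARS and KARS make both the cytosolic and the mitochondrial enzyme from a single gene. HNRNPU is a nuclear RNA-binding protein of chromatin, and the title of the series asks about nuclear localization of long noncoding RNAs. The synthetase mRNAs are protein-coding messages measured in the same fractions.

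Values are FPKM, fragments per kilobase of transcript scaled to library size, which allows levels to be compared between genes. The HNRNPU locus (which also carries the name HNRNPU-AS1) had 55.3 FPKM in knockdown against 129 in control whole-cell RNA, 63.7 in knockdown against 163 in control nuclear RNA, and 34.9 in knockdown against 158 in control cytosolic RNA. MALAT1, a nuclear lncRNA, had a nuclear-to-cytosolic ratio of 22.2 in knockdown and 14.1 in control RNA, and GAS5, a cytosolic one, had 0.307 in knockdown and 0.282 in control RNA. The 9 loci that hold the 10 K562 marker genes all averaged 1 FPKM or more. Among 12 markers of other cell types, 6 stayed under 1 FPKM in every library, and the others included KRT19, EPCAM, CD3D and COL1A2. Depth differed between libraries: a level of 1 FPKM on 1 kilobase of RNA was worth 18.7 fragments in knockdown and 23.1 in control whole-cell RNA, 39.0 in knockdown and 19.4 in control nuclear RNA, and 14.8 in knockdown and 13.4 in control cytosolic RNA. Counting ranges given below are 95% ranges computed from such estimated fragments, and they cover counting error only.

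The median level of mitochondrial synthetase mRNAs was below that of cytosolic ones in each of the 6 libraries. Averaged over the libraries, the median was 9.82 FPKM over the 16 mitochondrial enzymes and 82.7 FPKM over the 20 cytosolic enzymes, beside 11.8 FPKM over the 10289 protein-coding loci whose mean was 1 FPKM or more. All 36 members passed that minimum. The mitochondrial levels ran between 4.30 FPKM for MARS2 (methionine) and 42.8 FPKM for IARS2 (isoleucine), and the cytosolic levels between 22.9 FPKM for RARS (arginine) and 292 FPKM for WARS (tryptophan). Of the mitochondrial enzymes, IARS2, VARS2 (valine) at 28.4 FPKM and HARS2 (histidine) were the most abundant. At the low end of that class stood MARS2, PARS2 (proline) at 5.19 FPKM and WARS2 (tryptophan) at 6.02 FPKM. Below WARS in the cytosolic class came QARS (glutamine) at 167 FPKM and SARS (serine) at 142 FPKM. CARS (cysteine) at 25.3 FPKM and FARSB, the beta subunit of phenylalanyl-tRNA synthetase, at 25.5 FPKM lay just above RARS. Between the classes the ranges overlapped only where IARS2 and VARS2 exceeded the lowest cytosolic enzymes.

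**Figure D1:**
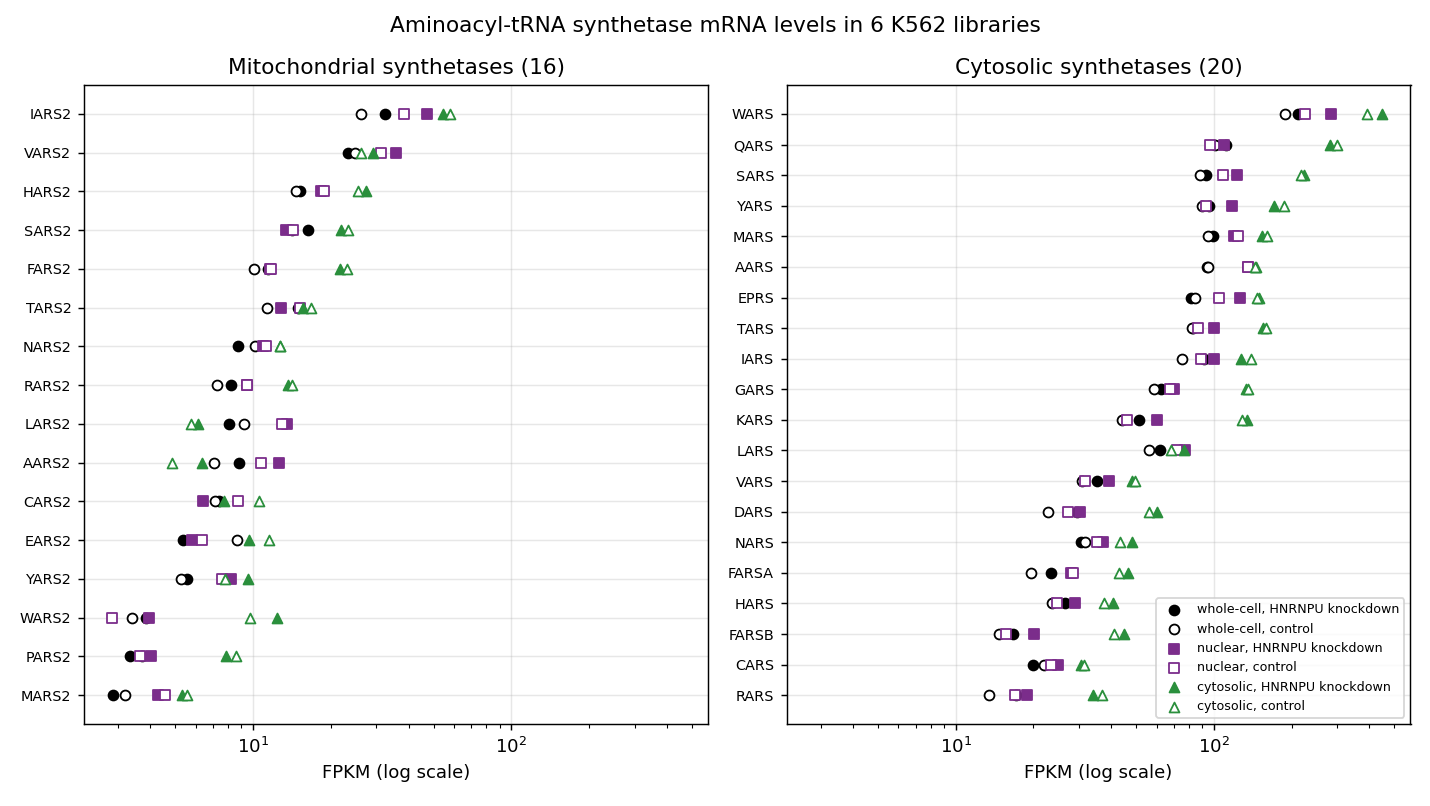
FPKM on a log scale for each of the 36 synthetase loci in the 6 libraries; the left panel holds the 16 mitochondrial and the right panel the 20 cytosolic enzymes, each sorted by mean level, with filled symbols for knockdown and open symbols for control. WARS had the highest mean of 292 FPKM and MARS2 the lowest of 4.30 FPKM, and for LARS2 and AARS2 the cytosolic triangles lie to the left of the nuclear squares.

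The gap between the enzymes of a given amino acid was uneven. There are 17 such pairs, since EPRS (a fused glutamyl- and prolyl-tRNA synthetase) is set against both EARS2 and PARS2, and FARS2, which works as a single chain, against each subunit of the cytosolic enzyme. In every pair the mitochondrial enzyme was lower, at a median of 13.5% of its cytosolic partner. WARS2 stood at 2.07% of WARS and MARS2 at 3.42% of MARS, while VARS2 stood at 72.6% of VARS and HARS2 at 65.6% of HARS. VARS2 and HARS2 are among the 4 members whose locus carries further gene names, GTF2H4 for VARS2 and ZMAT2 for HARS2, so their values can hold fragments of those genes. The other merged loci are those of HARS, with DND1, and SARS2, with FBXO17 and CTC-360G5.8.

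**Figure D2:**
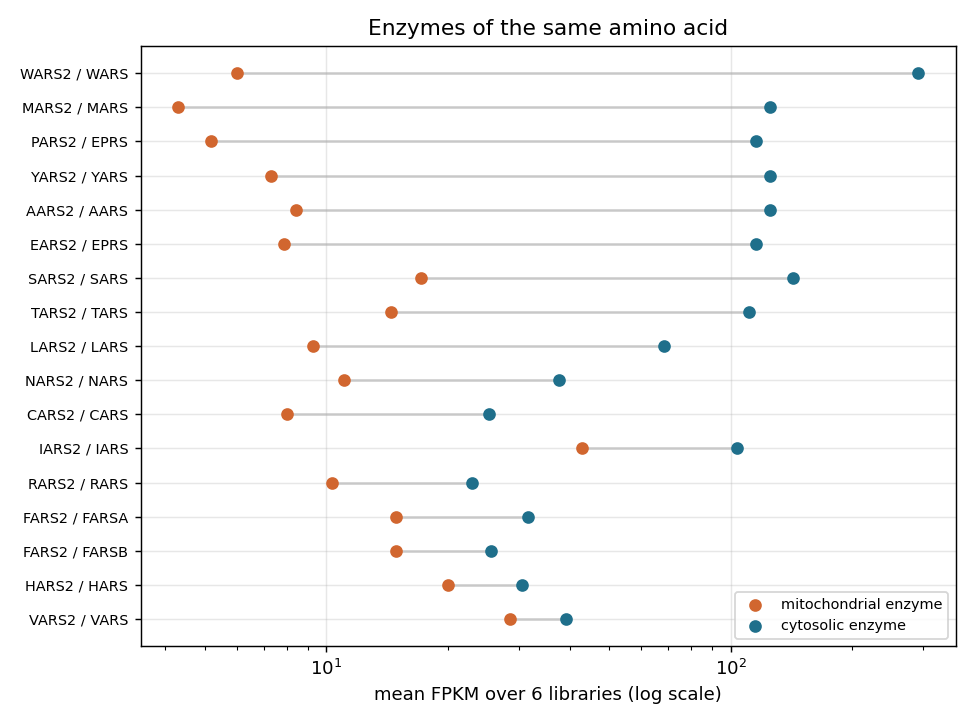
Mean FPKM over the 6 libraries, on a log scale, of the mitochondrial and the cytosolic enzyme of the same amino acid in 17 pairs, joined by a line and ordered with the widest gap at the top. The mitochondrial level lay between 2.07% of its partner (WARS2 and WARS) and 72.6% (VARS2 and VARS).

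HARS2 and HARS are neighbours that are read away from each other. Their loci on chromosome 5 run over positions 140071010 to 140086248 and 140050378 to 140071609 of hg19, as the deposited table gives them, and overlap by 599 bases. The promoter window of HARS2 is shown because it holds the start sites of both genes. It comes from RefSeq on GRCh38.p14 (chr5:140691205-140691504, plus strand), and the capitals mark the 84 bases between the start site of HARS, read to the left, and that of HARS2, read to the right.
HARS2: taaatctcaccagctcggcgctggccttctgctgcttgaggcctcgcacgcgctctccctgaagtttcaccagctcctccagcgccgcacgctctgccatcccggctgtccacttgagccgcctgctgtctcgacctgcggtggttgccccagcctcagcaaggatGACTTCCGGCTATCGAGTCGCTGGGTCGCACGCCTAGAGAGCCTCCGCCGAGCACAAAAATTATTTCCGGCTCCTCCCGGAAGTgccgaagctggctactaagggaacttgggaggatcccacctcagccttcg
HARS2 had 15.2 FPKM in knockdown against 14.7 in control whole-cell RNA, 18.4 in knockdown against 18.8 in control nuclear RNA, and 27.3 in knockdown against 25.5 in control cytosolic RNA. HARS had 26.6 FPKM in knockdown against 23.7 in control whole-cell RNA, 28.97 in knockdown against 24.8 in control nuclear RNA, and 40.9 in knockdown against 37.7 in control cytosolic RNA. HARS was higher after knockdown in each preparation, by log2 ratios of 0.17, 0.23 and 0.12, of which the last lay within its counting range of 0. For HARS2 the ratios were 0.05, -0.04 and 0.10, all within its counting range of 0.

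Differences between knockdown and control were small for nearly all synthetases. Ratios here are differences of log2(FPKM + 0.1), knockdown minus control. At a size rule of 1.5-fold, 1 of the 36 members was lower in whole-cell RNA and 0 were higher, where 3.86% of the 12838 loci that averaged 1 FPKM or more were lower and 4.76% higher. No member passed 1.5-fold in nuclear RNA, where 3.86% of loci were higher and 4.74% lower, nor in cytosolic RNA, where 6.41% were higher and 5.90% lower. In whole-cell RNA the median log2 ratio was 0.06 over the mitochondrial and 0.14 over the cytosolic enzymes, beside 0.06 over all those loci. With protein-coding median scaling these were -0.01 over the mitochondrial and 0.07 over the cytosolic enzymes, beside -0.009 over all loci. With quantile normalization they were 0.01 and 0.06, beside 0.0017 over all loci. Neither the sign of the mitochondrial median nor the size of the cytosolic one held, and the median of all loci moved as well. The nuclear medians were -0.01 for mitochondrial and 0.17 for cytosolic enzymes, beside 0.03 over all loci, and the cytosolic-RNA medians -0.06 for mitochondrial and 0.02 for cytosolic enzymes, beside 0.03. That 0.02 was -0.01 with protein-coding median scaling and -0.02 with quantile normalization, and the nuclear median of the cytosolic enzymes was 0.13 and 0.15. In nuclear RNA 7 of 16 mitochondrial and 17 of 20 cytosolic enzymes lay above 0, as did 54.0% of all loci. In whole-cell RNA the counts were 10 of 16 and 16 of 20, against 60.7% of loci, and in cytosolic RNA 6 of 16 and 11 of 20, against 54.3%. Abundant loci as a whole leaned the same way. Of the 3310 loci that averaged 20 FPKM or more, a comparison chosen once the values were known, 71.1% lay above 0 in whole-cell RNA, 61.1% in nuclear RNA and 59.5% in cytosolic RNA. Counting ranges lay wholly above 0 for 16 members and below 0 for 4 in whole-cell RNA, where 29.3% and 12.3% of 10978 loci with a known length did. In nuclear RNA 17 members lay above and 2 below (29.6% and 21.1% of those loci), and in cytosolic RNA 9 above and 6 below (25.7% and 17.3%). Of the 17 in nuclear RNA, 4 were mitochondrial and 13 cytosolic enzymes.

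The member past 1.5-fold was EARS2, the mitochondrial glutamyl-tRNA synthetase (chromosome 16, 23533334 to 23569052 on hg19). It had 5.33 FPKM in knockdown against 8.69 in control whole-cell RNA, 5.78 in knockdown against 6.34 in control nuclear RNA, and 9.62 in knockdown against 11.5 in control cytosolic RNA. All 3 knockdown values were below their control, with log2 ratios of -0.69, -0.13 and -0.26, and the whole-cell gap was the widest. The counting error of these ratios was 0.11, 0.10 and 0.10, so the nuclear one lay within its counting range of 0. EPRS, which charges the same amino acid in the cytosol, had 81.9 FPKM in knockdown against 84.3 in control whole-cell RNA, 126 in knockdown against 104 in control nuclear RNA, and 149 in knockdown against 146 in control cytosolic RNA.

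CARS2, the mitochondrial cysteinyl-tRNA synthetase, was lower in the fractions and not in whole-cell RNA. It had 7.35 FPKM in knockdown against 7.14 in control whole-cell RNA, 6.38 in knockdown against 8.72 in control nuclear RNA, and 7.72 in knockdown against 10.5 in control cytosolic RNA. Its log2 ratios in nuclear and cytosolic RNA, -0.44 and -0.45, were the lowest of the 36 members in those fractions, and they rest on about 413 and 281 nuclear and 189 and 234 cytosolic fragments, the knockdown library first. After EARS2, the lowest whole-cell ratios were those of NARS2 (-0.22), with 8.72 FPKM in knockdown and 10.2 FPKM in control, and LARS2 (-0.19), with 8.09 FPKM in knockdown and 9.22 FPKM in control. TARS2, the mitochondrial threonyl-tRNA synthetase, went in opposite directions: it had 15.0 FPKM in knockdown against 11.3 in control whole-cell RNA, 12.8 in knockdown against 15.2 in control nuclear RNA, and 15.6 in knockdown against 16.7 in control cytosolic RNA. Its whole-cell ratio of 0.40 was the highest of the members.

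AARS2 (alanine), WARS2 and YARS2 (tyrosine) were the mitochondrial enzymes that stood higher after knockdown in every preparation. AARS2 had 8.85 FPKM in knockdown against 7.07 in control whole-cell RNA, 12.6 in knockdown against 10.8 in control nuclear RNA, and 6.32 in knockdown against 4.85 in control cytosolic RNA. WARS2 had 3.86 FPKM in knockdown against 3.39 in control whole-cell RNA, 3.96 in knockdown against 2.85 in control nuclear RNA, and 12.4 in knockdown against 9.71 in control cytosolic RNA. The nuclear log2 ratio of WARS2, 0.46, was the highest of the members in nuclear RNA, and the cytosolic ratio of AARS2, 0.38, the highest in cytosolic RNA. The 95% counting ranges of the AARS2 ratios lay above 0 in all 3 preparations, and those of WARS2 in the fractions. YARS2 had log2 ratios of 0.07, 0.12 and 0.30.

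A smaller size rule, a log2 ratio of 0.32, shows which members led. In whole-cell RNA 3 members passed it upward (TARS2, DARS and RARS) and 1 downward (EARS2), where 15.8% of all loci did so upward and 10.1% downward. In nuclear RNA 5 passed upward (13.2% of loci) and CARS2 alone downward (12.9%), and in cytosolic RNA AARS2 and WARS2 passed upward (15.1%) and CARS2 downward (12.5%). In each case the share of members was close to or below that of all loci.

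Among cytosolic enzymes, WARS, DARS, FARSB and LARS were higher in each preparation beyond their counting ranges. WARS had 212 FPKM in knockdown against 188 in control whole-cell RNA, 284 in knockdown against 225 in control nuclear RNA, and 449 in knockdown against 393 in control cytosolic RNA. DARS (aspartate) and RARS had the highest whole-cell ratios of the class, 0.37 and 0.34. DARS had 29.6 FPKM in knockdown against 22.8 in control whole-cell RNA, 30.4 in knockdown against 27.2 in control nuclear RNA, and 60.3 in knockdown against 56.0 in control cytosolic RNA. RARS had 17.1 FPKM in knockdown against 13.5 in control whole-cell RNA, 18.8 in knockdown against 17.0 in control nuclear RNA, and 34.2 in knockdown against 36.7 in control cytosolic RNA. Both enzymes belong to the multi-synthetase complex. In nuclear RNA the highest ratios of the class were those of KARS and FARSB, 0.39 and 0.37. KARS had 51.3 FPKM in knockdown against 43.9 in control whole-cell RNA, 60.5 in knockdown against 46.3 in control nuclear RNA, and 134 in knockdown against 129 in control cytosolic RNA. FARSB had 16.7 FPKM in knockdown against 14.8 in control whole-cell RNA, 20.1 in knockdown against 15.6 in control nuclear RNA, and 44.8 in knockdown against 41.0 in control cytosolic RNA. For both the widest gap was the nuclear one. The lowest whole-cell ratio of the class, -0.14, was that of CARS, with 19.9 FPKM in knockdown and 21.9 FPKM in control. AARS hardly differed, with 93.8 FPKM in knockdown against 95.1 in control whole-cell RNA, 136 FPKM in both nuclear libraries, and 146 in knockdown against 144 in control cytosolic RNA.

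**Figure D3:**
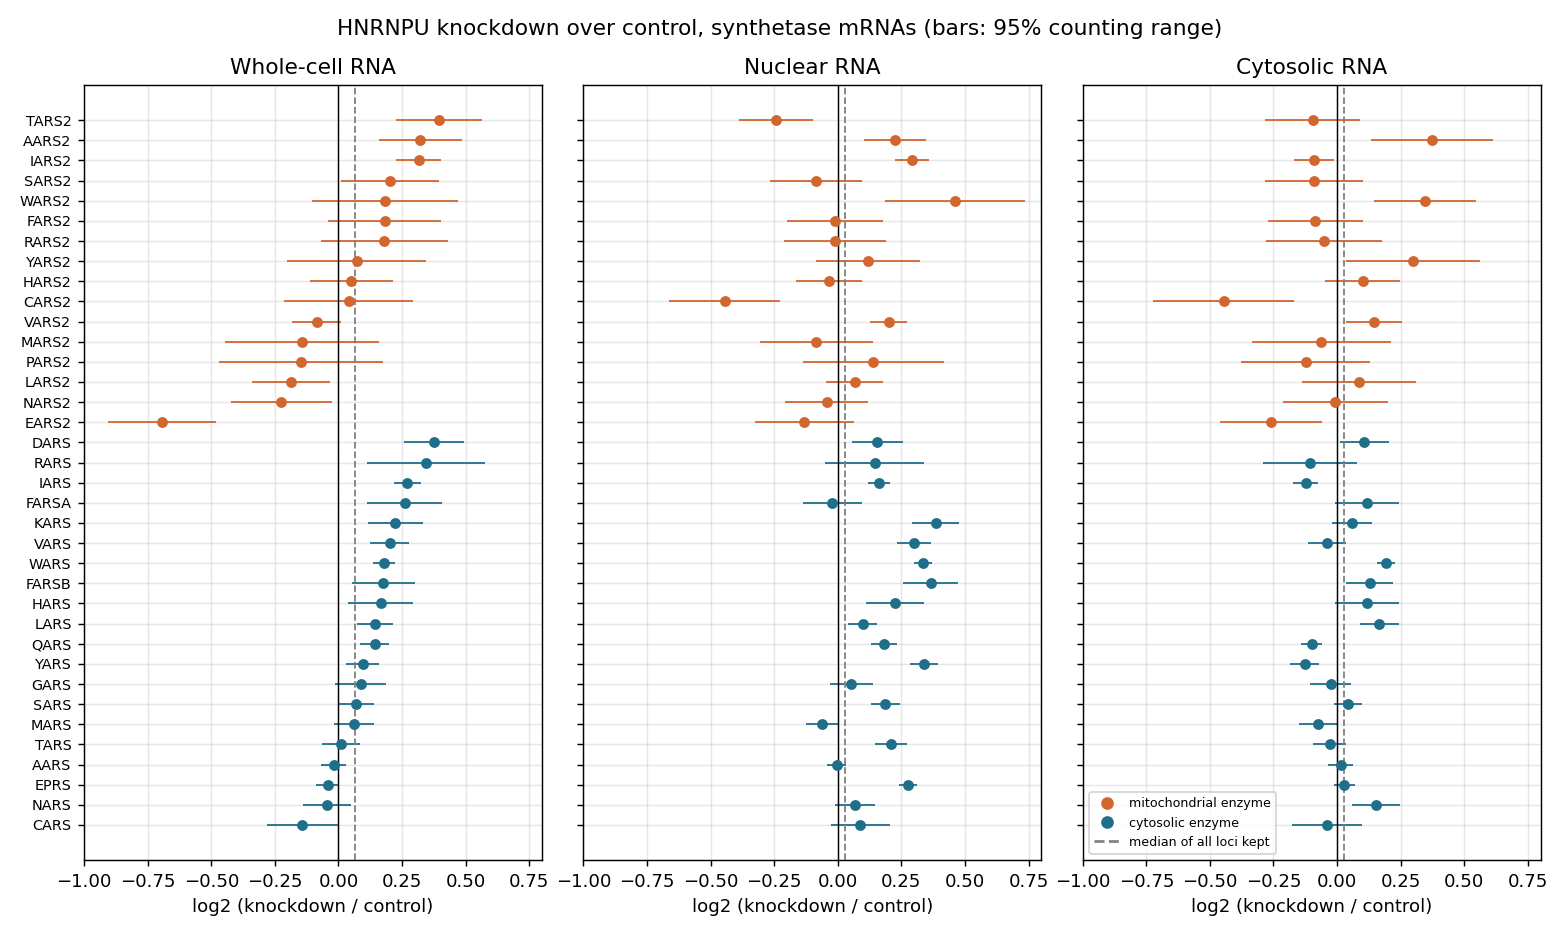
Log2 ratio of knockdown to control FPKM for each synthetase in whole-cell, nuclear and cytosolic RNA, with mitochondrial enzymes above cytosolic ones, 95% counting ranges as bars and the median of 12838 loci as a dashed line. EARS2 stands apart at -0.69 in whole-cell RNA, and 17 of the 20 cytosolic enzymes lie above 0 in nuclear RNA.

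A shared direction over the 3 preparations was about as common among synthetases as among all loci. Of the 36 members, 10 were higher after knockdown in each preparation (27.8%), where 24.6% of all loci were, and 3 were lower (8.33%), where 13.2% were. The higher ones were the mitochondrial AARS2, WARS2 and YARS2 and the cytosolic DARS, FARSB, HARS, KARS (lysine), LARS (leucine), SARS and WARS. The lower ones, EARS2, MARS2 and NARS2 (asparagine), were all mitochondrial. MARS2 had log2 ratios of -0.14, -0.08 and -0.06 and NARS2 of -0.22, -0.04 and -0.01, of which only the whole-cell one of NARS2 lay beyond its counting range of 0.

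ATF4, the transcription factor of the amino acid response, drives many cytosolic synthetase genes when amino acids are short or the endoplasmic reticulum is stressed. It binds with C/EBP partners at an element whose core was searched here as TGATGNAA on either strand of RefSeq promoter windows (GRCh38.p14, 250 bases before the start site and 50 from it on), which 30 of the 36 members had. The core was found in 1 of 14 mitochondrial and 7 of 16 cytosolic enzymes with a window, and in 4.46% of 27305 genes. The stretches that hold it are shown because they mark out the synthetases with this element; the element is in capitals, with 16 bases on each side, read 5′ to 3′ along the gene. In NARS and YARS2 it lies on the gene's strand and in the others on the opposite strand. Its first base lay at -197 from the start site in YARS2, -187 in AARS, -33 in GARS, -13 in IARS, -4 in MARS, -2 in CARS, 3 in TARS and 15 in NARS.
YARS2 (chr12:32756071-32756110, minus strand): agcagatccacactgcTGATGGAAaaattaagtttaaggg
AARS (chr16:70289670-70289709, minus strand): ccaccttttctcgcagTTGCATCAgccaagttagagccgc
CARS (chr11:3057402-3057441, minus strand): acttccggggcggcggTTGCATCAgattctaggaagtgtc
GARS (chr7:30594829-30594868, plus strand): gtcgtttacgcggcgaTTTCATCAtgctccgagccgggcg
IARS (chr9:92293687-92293726, minus strand): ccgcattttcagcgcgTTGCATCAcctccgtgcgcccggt
MARS (chr12:57488048-57488087, plus strand): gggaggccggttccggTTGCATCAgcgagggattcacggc
NARS (chr18:57621799-57621838, minus strand): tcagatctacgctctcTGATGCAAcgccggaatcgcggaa
TARS (chr5:33440951-33440990, plus strand): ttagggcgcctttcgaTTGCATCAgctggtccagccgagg
Other motifs searched on either strand were the core of the NRF1 site, CACGTG, the E-box bound by MYC, and CCGGAAGT, bound by ETS factors, and none of these motifs contains another. The NRF1 core was in 3 of 14 mitochondrial and 3 of 16 cytosolic windows (6.98% of genes), the E-box in 3 and 1 (8.77%), and the ETS motif in 3 and 5 (4.95%).

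The synthetases with the ATF4 element did not stand above the rest after knockdown. Over the 7 cytosolic enzymes with the element the median whole-cell log2 ratio was 0.0096, against 0.18 over the 9 with a window and no match, and the nuclear medians were 0.07 with and 0.23 without it. The list of 12 synthetases known to respond to ATF4 had a whole-cell median of 0.07, with 8 of 12 above 0, and the 8 cytosolic synthetases outside the list a median of 0.21, with 8 of 8 above 0. Above 0 in whole-cell RNA were 60.7% of all loci and 71.1% of those that averaged 20 FPKM or more, so the 12 are near that share. EPRS, SARS and WARS of the 12 are among the 9 with no match, so both groups hold ATF4-responsive synthetases. ATF4 mRNA itself had 197 FPKM in knockdown against 199 in control whole-cell RNA, 154 in knockdown against 163 in control nuclear RNA, and 578 in knockdown against 670 in control cytosolic RNA. Of 19 other ATF4 pathway genes kept, of 20 listed, ATF4 included, 10 lay above 0 and 9 below 0 in whole-cell RNA, fewer than the 60.7% of all loci above 0, and the median was 0.0037. The widest whole-cell ratios of that list were -0.58 for CHAC1, which degrades glutathione, 0.29 for ATF3, a stress-induced transcription factor, 0.25 for SHMT2, of mitochondrial serine metabolism, and -0.19 for PHGDH, of serine synthesis. At a fold of 1.5 none of these passed in whole-cell RNA, ATF3 was higher in nuclear RNA (0.61) and CHAC1 lower in cytosolic RNA (-0.63).

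For the 8 synthetases of the multi-synthetase complex the median log2 ratio was 0.18 in whole-cell RNA, with 7 above 0 (60.7% of all loci and 71.1% of those that averaged 20 FPKM or more). Their nuclear median was 0.16, again with 7 above 0 (54.0% and 61.1%), and their cytosolic median -0.02, with 4 above 0 (54.3% and 59.5%). Of the scaffold proteins, AIMP1 was lower in whole-cell RNA, with 6.41 FPKM in knockdown and 9.30 FPKM in control (log2 ratio -0.53), and it had 8.36 in knockdown against 9.19 in control nuclear RNA and 20.4 in knockdown against 22.1 in control cytosolic RNA. AIMP2 had 8.14 FPKM in knockdown and 7.34 in control whole-cell RNA. The scaffold gene EEF1E1 lies in a locus merged with 4 other names, TXNDC5 among them, and had 103 FPKM in knockdown and 99.9 in control whole-cell RNA. By catalytic fold, the 19 class I enzymes had a median whole-cell ratio of 0.10 and the 17 class II enzymes one of 0.17. The fused enzyme EPRS was counted in class I only, although PARS2, the partner of its prolyl part, was counted in class II.

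Nuclear and cytosolic RNA place each mRNA between the fractions. Ratios of nuclear to cytosolic FPKM depend on how the libraries were scaled, so they are read beside all loci. In knockdown RNA the median log2 ratio was -0.29 over the mitochondrial and -0.59 over the cytosolic enzymes, and -0.47 over all loci. In control RNA the medians were -0.36 over the mitochondrial and -0.72 over the cytosolic enzymes, and -0.44 over all loci. Above 0 lay 4 of 36 members in each condition, against 32.9% of all loci in knockdown and 34.8% in control RNA, and at least 1.5-fold lower in nuclear RNA were 15 in knockdown and 20 in control, against 45.0% of all loci in both. Counting ranges lay below 0 for 32 members in knockdown and 29 in control RNA, where 66.0% and 63.2% of loci with a known length did, and above 0 for 3 and 4, where 20.4% and 21.4% did. Among loci that averaged 20 FPKM or more, only 15.8% in knockdown and 16.7% in control RNA lay above 0. Of the 17 pairs, the mitochondrial enzyme had the higher ratio in 12 in knockdown and in 13 in control RNA. That order of the classes depends on the scaling: with quantile normalization the mitochondrial minus cytosolic difference was -0.29 in knockdown RNA, where it was 0.29 as deposited. With that normalization the medians of both classes lay above 0 in both conditions, and with scaling to the protein-coding median that of the mitochondrial enzymes did (0.23 in knockdown and 0.17 in control RNA).

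LARS2 (leucine) and AARS2 were at the nuclear end. As deposited, they were the only members at least 1.5-fold higher in nuclear than in cytosolic RNA. Of all loci, 19.9% were so in knockdown and 21.8% in control RNA. LARS2 had 13.6 FPKM in nuclear against 6.12 in cytosolic knockdown RNA, and 12.96 in nuclear against 5.77 in cytosolic control RNA, log2 ratios of 1.14 and 1.15. AARS2 had ratios of 1.98 in knockdown and 2.19 in control RNA, from 12.6 FPKM in nuclear against 6.32 in cytosolic knockdown RNA and 10.8 in nuclear against 4.85 in cytosolic control RNA. Both stayed above 0 under every scaling and pseudocount tried. VARS2, in its merged locus, was the third, with log2 ratios of 0.30 in knockdown and 0.25 in control RNA, and LARS the fourth, with 77.0 FPKM in nuclear against 76.6 in cytosolic knockdown RNA and 71.9 in nuclear against 68.3 in cytosolic control RNA. The cytosolic partner of AARS2 also sat near the nuclear end of its class, since AARS had log2 ratios of -0.10 in knockdown and -0.09 in control RNA.

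At the cytosolic end were WARS2 and QARS. WARS2 had 3.96 FPKM in nuclear against 12.4 in cytosolic knockdown RNA and 2.85 in nuclear against 9.71 in cytosolic control RNA, log2 ratios of -1.62 and -1.73. QARS had 110.0 FPKM in nuclear against 281 in cytosolic knockdown RNA and 97.0 in nuclear against 301 in cytosolic control RNA, log2 ratios of -1.35 and -1.63. Next were KARS and FARSB, both at -1.15 in knockdown RNA and at -1.47 and -1.39 in control RNA. WARS2 and WARS therefore lay far apart, since WARS had -0.66 in knockdown and -0.80 in control RNA. FARSA, the catalytic alpha subunit of phenylalanyl-tRNA synthetase, had -0.73 in knockdown and -0.59 in control RNA, so the mRNAs of the alpha and beta subunits lay apart in both conditions by more than their counting ranges.

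The order of the 36 members between the fractions was nearly the same with and without HNRNPU knockdown. Pearson's r between knockdown and control ratios was 0.97 and Spearman's rho 0.92 over the members, where 10289 protein-coding loci had 0.91 and 0.92, and genes of the same libraries are not independent replicates. Members with longer mRNAs tended to have higher nuclear-to-cytosolic ratios: Spearman's rho of the knockdown ratio with mean transcript length (GENCODE release 29) was 0.46 over the members and 0.36 over the protein-coding loci. In control RNA these were 0.32 over the members and 0.31 over the protein-coding loci.

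The localization shift is the log2 nuclear-to-cytosolic ratio in knockdown minus that in control RNA, so a value above 0 is a shift toward the nucleus. Cytosolic synthetase mRNAs leaned that way and mitochondrial ones did not: the median shift was 0.0029 over the 16 mitochondrial and 0.14 over the 20 cytosolic enzymes, beside 0.00054 over all loci. The fraction markers moved in the same libraries, with shifts of 0.66 for MALAT1, 0.18 for LINC00657, 0.13 for GAS5 and -0.10 for NEAT1, so 3 of the 4 lay toward the nucleus by about as much as the cytosolic enzymes or more. Their part in the result was not tested. Above 0 lay 9 of 16 mitochondrial and 16 of 20 cytosolic enzymes, against 50.0% of all loci and 53.0% of those that averaged 20 FPKM or more. Beyond the counting range, 1 mitochondrial and 10 cytosolic enzymes were shifted to the nucleus and 0 of either class to the cytosol. Of all loci with a known length, 19.8% were shifted to the nucleus and 18.6% to the cytosol beyond that range, and of those that averaged 20 FPKM or more 27.4% were shifted to the nucleus and 21.4% to the cytosol. Counting errors were larger for the less abundant class, 0.05 to 0.19 for mitochondrial against 0.03 to 0.14 for cytosolic enzymes, so fewer mitochondrial shifts of a given size could pass. No shift reached 1.5-fold, which 7.59% of loci did toward the nucleus and 9.20% toward the cytosol. A shift of 0.32 was passed toward the nucleus by 4 members (16.7% of loci) and toward the cytosol by 0 (18.9%). Whether the difference between the classes exceeds culture-to-culture variation was not tested, and the knockdown nuclear library was the deepest of the 6, with 39.0 fragments for 1 FPKM on 1 kilobase; its part in the shift was not tested.

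YARS (tyrosine) had the largest shift, 0.47, with 118 FPKM in nuclear against 171 in cytosolic knockdown RNA and 93.0 in nuclear against 186 in cytosolic control RNA. Its nuclear value was higher and its cytosolic value lower after knockdown, and its counting error was 0.04. IARS2 followed with 0.38, from 47.1 FPKM in nuclear against 54.6 in cytosolic knockdown RNA and 38.5 in nuclear against 58.1 in cytosolic control RNA, and it was the mitochondrial enzyme beyond the counting range. VARS came next with 0.34, from 39.2 FPKM in nuclear against 48.1 in cytosolic knockdown RNA and 31.8 in nuclear against 49.5 in cytosolic control RNA. These 3 are the members with the highest shifts, and in each of them the nuclear libraries differ more than the cytosolic ones. KARS had a shift of 0.32, IARS of 0.29 and QARS of 0.28, and these 3 are enzymes of the multi-synthetase complex. The 8 enzymes of the complex had a median shift of 0.25, beside 0.14 over the 20 cytosolic enzymes, which include them. Over all loci the median was 0.00054, and 0.01 over those that averaged 20 FPKM or more. YARS and VARS, which had higher shifts, are not among the 8. Beyond the counting range 4 of the 8 were shifted to the nucleus, where 19.8% of all loci with a known length were. Of those that averaged 20 FPKM or more, 27.4% were. The 4 were KARS, IARS, QARS and EPRS, and EPRS had 0.25 with a counting error of 0.03. RARS had 0.25, DARS 0.05, MARS 0.01 and LARS -0.07, all within their counting range of 0.

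The lowest shifts were those of YARS2 (-0.18), AARS2 (-0.15) and TARS2 (-0.15), and FARSA had -0.14, the lowest of the cytosolic class. All 4 lay within their counting range of 0. YARS2 and YARS were therefore at opposite ends: YARS2 had 8.20 FPKM in nuclear against 9.59 in cytosolic knockdown RNA and 7.54 in nuclear against 7.78 in cytosolic control RNA. The mitochondrial enzyme had the higher shift in 5 of the 17 pairs. Across the 36 members the shift went with level (Pearson's r 0.42, Spearman's rho 0.44 with log2 mean FPKM), where protein-coding loci had 0.06 and 0.05. Members of higher level carry smaller counting error, and level and enzyme class go together here.

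**Figure D4:**
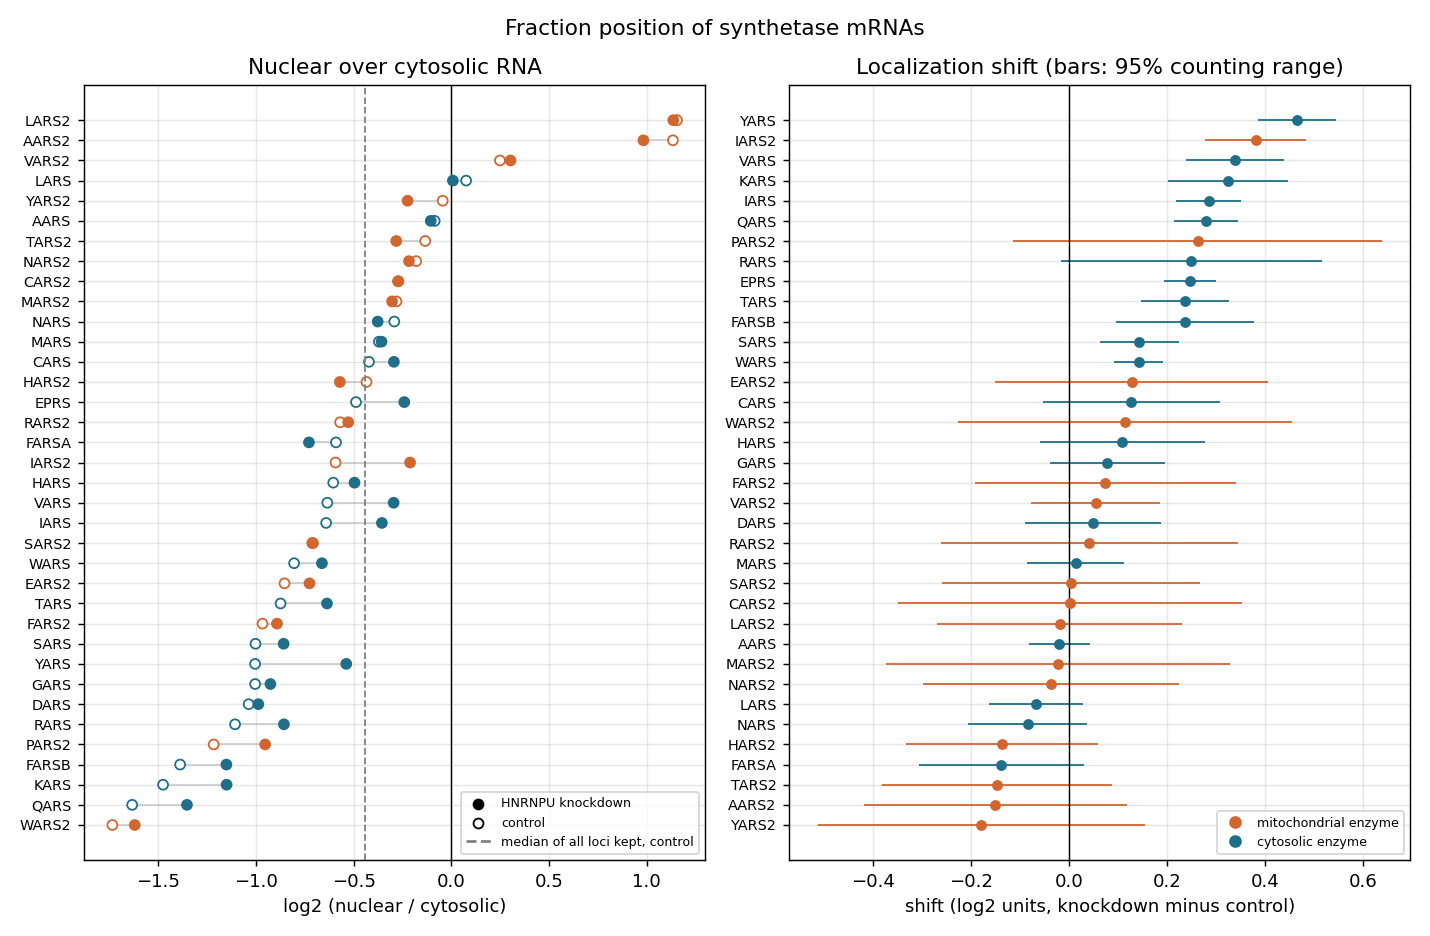
Left, log2 ratio of nuclear to cytosolic FPKM for each synthetase in knockdown (filled) and control (open), with the control median of 12838 loci dashed; right, the localization shift with 95% counting ranges as bars. LARS2 and AARS2 stand at the nuclear end in both conditions, and YARS has the largest shift, 0.47.

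Other genes of aminoacylation were read from a list of 14 names, of which 13 were found and averaged 1 FPKM or more. In whole-cell RNA 8 lay above 0, with a median log2 ratio of 0.04, and 1 was at least 1.5-fold higher and 0 lower, where 60.7% of all loci lay above 0, 4.76% were higher and 3.86% lower. It was PSTK, the kinase of the selenocysteine pathway, with 1.51 FPKM in knockdown against 0.913 in control whole-cell RNA, 1.61 in knockdown against 1.04 in control nuclear RNA, and 2.90 in knockdown against 4.42 in control cytosolic RNA. Its whole-cell log2 ratio of 0.67 had a counting error of 0.40 and so lay within its counting range of 0. QRSL1, a subunit of the mitochondrial amidotransferase that makes glutaminyl-tRNA, lies in a locus that also carries the pseudogene RPL21P65 and had 8.70 FPKM in knockdown and 6.14 FPKM in control whole-cell RNA (log2 ratio 0.50). TARSL2, a relative of TARS, had 1.55 FPKM in knockdown and 1.95 FPKM in control whole-cell RNA (log2 ratio -0.32, counting error 0.21, within its counting range of 0). The median shift of the 13 loci was 0.20, with 10 above 0, against 50.0% of all loci. Beyond the counting range 2 were shifted to the nucleus and 2 to the cytosol, where 19.8% and 18.6% of loci with a known length were. PSTK, at 1.18, was the only one past 1.5-fold toward the nucleus, as were 7.59% of all loci. Besides that of QRSL1, the loci of EEF1E1, GATC (with COX6A1) and AARSD1 (with PTGES3L) are merged. Their values can hold fragments of the other genes, among them the shift of -0.15 for GATC.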

How the data were processed

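The authors deposited FPKM values, fragments per kilobase of transcript scaled to library size, for 62828 loci, with 6 libraries as columns. No header names the unit, which was inferred from the numbers and the software. Per the submitters' processing notes, the software was Cuffdiff 2.2.1, TopHat2 2.0.13, FastQC and CASAVA, with mm9 listed beside hg19. How libraries were scaled, which annotation was used and if strand was used are not stated in those notes, so antisense fragments may be included. Loci averaging 1 FPKM or more were kept (12838), and ratios are differences of log2(FPKM + 0.1). Such ratios understate the change of low loci. Gene types and transcript lengths came from GENCODE release 29 by symbol. Depth was estimated from the spacing of low FPKM values at 3879 single-exon loci, after subtracting 220 bases of each length. Counting ranges are 1.96 counting errors wide on each side. The members, lists and motifs were chosen with earlier results of these data known. The rule for named genes took the 3 highest and 3 lowest members of each comparison, those past 1.5-fold, the 3 highest and 3 lowest mean levels, and up to 4 genes of each list. Other members, and GATC and AARSD1 of the aminoacylation list, were named after their values were seen. The computing used matplotlib 3.10.9, scipy 1.17.1, pandas 2.3.3 and numpy 2.4.6 under Python 3.11.15. On simulated data only the whole-cell knockdown ratios and the depth estimate were tested.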

Additional observations from a re-analysis of the deposited data

Results flagged for a closer look

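For 5 synthetases knockdown went with opposite differences in different preparations, each larger than the counting range. The share of all loci with such opposite differences was not computed, so whether 5 is unusual cannot be told. With 1 library a group the difference between preparations was not tested. For IARS the knockdown-to-control log2 ratio was 0.27 in whole-cell RNA, 0.16 in nuclear RNA and -0.12 in cytosolic RNA. The ratios of QARS were 0.14, 0.18 and -0.10 in the same order, those of YARS 0.10, 0.34 and -0.13, and those of IARS2 0.32, 0.29 and -0.09. TARS2 had 0.40 in whole-cell and -0.24 in nuclear RNA.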

How the results depend on the processing

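Of 208 alternative values for the class medians and counts, 186 stayed within a tolerance that, with no replicates, was the spread between genes (for a count, 1.5 times), which lets small medians change sign. Of 248 for single members 225 stayed within the counting range of the reported value. The others were 23 nuclear-to-cytosolic ratios under another scaling. With protein-coding median scaling, the nuclear-to-cytosolic median was 0.23 over the mitochondrial and -0.06 over the cytosolic enzymes in knockdown RNA, and 0.17 and -0.19 in control RNA. With quantile normalization these were 0.08 and 0.38 in knockdown RNA and 0.20 and 0.18 in control RNA, and the class difference was -0.29 in knockdown and 0.02 in control RNA, against 0.29 and 0.36 as reported. Members lower in all 3 preparations numbered 6 with the first scaling and 7 with the second, against 3 as reported. Members at least 1.5-fold apart between the fractions were 7 in knockdown and 9 in control RNA with the first scaling, and 11 and 9 with the second, against 17 and 22. At 2-fold they were 5 and 12, and no synthetase passed in whole-cell RNA (0). Shares of all loci under either scaling or at 2-fold were not computed, so whether these counts differ from them cannot be told. At a log2 ratio of 0.32, 4 members passed in whole-cell RNA, 6 in nuclear RNA, 3 in cytosolic RNA and 4 by shift. The median shift of the cytosolic enzymes stayed between 0.14 and 0.19 and that of the mitochondrial ones between -0.01 and 0.01. The median of all loci for knockdown over control moved by less than 0.1 under either scaling, and for nuclear over cytosolic RNA it was 0.05 and -0.05 in knockdown RNA. A fit over the 6 libraries paired by preparation was not run, because the labels do not say that the preparations come from separate cultures. The cause of these moves was not tested. Depth limits the mitochondrial enzymes most, whose shift had counting errors of up to 0.19.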
